A study of Mus musculus with 6 samples.

Results

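The classical MHC class II genes and their master regulator were followed in chromatin accessibility data from crypts of the mouse intestine, the epithelial pits that hold the stem and progenitor cells. The set held 7 genes of 21938 protein-coding genes: H2-Aa, H2-Ab1, H2-Eb1, H2-DMa, H2-DMb1, Cd74 and Ciita. A peak belonged to a gene when its summit lay in the gene body or in the 10 kb either side. Of all 71286 regions at which a peak was called in at least 1 of 6 lists, 29 lay in these windows, and each list contributed 18 to 23 peaks out of 40492 to 58297.

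ATAC-seq, in which Tn5 transposase cuts and tags open DNA, was carried out on 3 WT and 3 Arid3a cKO samples. The cKO mice carried VillinCre-ERT2+/- and Arid3a fl/fl, so that tamoxifen deletes Arid3a in Villin+ epithelium, while stromal and immune cells keep the gene. The WT samples carry the label Arid3a WT, and the alleles of these mice beyond that are not given in the sources used here. All 6 samples came from mice given tamoxifen on 3 consecutive days and collected 1 month after the first injection. The age of the mice is not given in the sources used here. Crypts were dissociated to single cells and their nuclei tagmented, with no sort for immune or epithelial cells described for this assay.

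MHC class II molecules are dimers of an alpha and a beta chain that present peptides from the endosome to CD4+ T cells. The invariant chain Cd74 guides new dimers to the endosome and blocks their groove, and the H2-DM dimer then exchanges its remnant for peptide. Ciita is the coactivator, itself unable to bind DNA, on which transcription of these genes largely depends. It is recruited by factors already on the promoters, RFX on the X box, CREB on the X2 box and NF-Y on the Y box. Dendritic cells and B cells express class II genes constitutively, whereas crypt epithelium, stem cells included, can switch them on through interferon gamma, IRF1 and the promoter of Ciita that responds to this cytokine.

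The promoter sequences are shown because the open regions described below lie on them. Each is the stretch from 250 bases before to 50 bases from the transcription start, read 5′ to 3′ on the gene's strand in GRCm38.p6. Those of H2-Aa (chr17:34287774-34288073, minus strand), H2-Eb1 (chr17:34305617-34305916, plus strand) and H2-DMb1 (chr17:34152941-34153240, plus strand) came from the RefSeq promoter table, which held 4 of the 7 genes. Those of H2-Ab1 (chr17:34262959-34263258), the short transcripts of H2-DMa (chr17:34135378-34135677) and the third group of Ciita starts (chr16:10489496-10489795), all on the plus strand, were read from the genome at the GENCODE start. Capitals mark 4 motifs, each sought on both strands. These were an X box core followed by a Y box (GNAAC, 20 to 40 bases, then ATTGG), the Y box alone (ATTGG, which overlaps the former), the E box bound by USF1 (CACGTG) and an IRF element (GAAANNGAA).
H2-Aa: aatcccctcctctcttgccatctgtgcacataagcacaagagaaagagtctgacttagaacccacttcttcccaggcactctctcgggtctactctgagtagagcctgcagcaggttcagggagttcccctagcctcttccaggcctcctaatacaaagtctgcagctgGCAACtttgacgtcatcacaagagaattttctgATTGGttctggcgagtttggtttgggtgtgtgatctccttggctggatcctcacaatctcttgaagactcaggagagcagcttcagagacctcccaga
H2-Eb1: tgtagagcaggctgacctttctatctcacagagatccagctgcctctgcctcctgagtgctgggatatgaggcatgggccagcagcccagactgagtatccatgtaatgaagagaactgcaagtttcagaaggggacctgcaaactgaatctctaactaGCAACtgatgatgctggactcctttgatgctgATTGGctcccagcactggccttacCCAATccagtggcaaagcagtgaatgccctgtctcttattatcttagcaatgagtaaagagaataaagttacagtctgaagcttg
H2-DMb1: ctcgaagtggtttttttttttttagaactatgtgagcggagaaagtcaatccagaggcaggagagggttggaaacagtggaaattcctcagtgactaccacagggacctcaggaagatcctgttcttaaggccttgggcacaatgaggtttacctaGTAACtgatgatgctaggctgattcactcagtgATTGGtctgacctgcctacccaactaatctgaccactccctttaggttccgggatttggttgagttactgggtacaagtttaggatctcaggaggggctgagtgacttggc
H2-Ab1: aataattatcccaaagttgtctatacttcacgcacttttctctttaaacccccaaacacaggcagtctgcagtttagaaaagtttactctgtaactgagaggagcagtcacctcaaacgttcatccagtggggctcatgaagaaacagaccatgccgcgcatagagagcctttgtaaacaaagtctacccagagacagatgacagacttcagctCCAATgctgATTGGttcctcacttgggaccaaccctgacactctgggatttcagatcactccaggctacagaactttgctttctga
H2-DMa: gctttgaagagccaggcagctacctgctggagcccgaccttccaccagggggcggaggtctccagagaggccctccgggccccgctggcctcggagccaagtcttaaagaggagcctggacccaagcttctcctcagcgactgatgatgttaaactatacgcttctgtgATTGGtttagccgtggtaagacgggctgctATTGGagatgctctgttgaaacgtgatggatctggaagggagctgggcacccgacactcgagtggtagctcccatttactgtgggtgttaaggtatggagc
Ciita: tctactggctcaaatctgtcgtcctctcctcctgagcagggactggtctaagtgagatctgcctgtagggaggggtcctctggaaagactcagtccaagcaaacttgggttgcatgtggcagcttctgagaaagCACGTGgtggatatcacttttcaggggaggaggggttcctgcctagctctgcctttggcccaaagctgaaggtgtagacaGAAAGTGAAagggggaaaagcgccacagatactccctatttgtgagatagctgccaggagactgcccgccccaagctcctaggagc

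The X box core and Y box stood in the class II order, on the coding strand, in the promoters of H2-Aa, H2-Eb1 and H2-DMb1, 28, 27 and 28 bases apart. This pair of letters occurred in 3.41% of 32851 promoters of the same length. In H2-Aa it ran from 81 to 44 bases upstream of the start, and a peak lay over it in 6 of 6 lists. In H2-Eb1 it ran from 91 to 55 bases upstream, under a peak in 5 lists. In H2-DMb1 it ran from 94 to 57 bases upstream of the RefSeq start, under a peak in 6 lists. The promoter of H2-Ab1 and that of the short H2-DMa transcripts held the Y box letters with no GNAAC at that distance before them, and ATTGG on either strand was found in 37.4% of promoters. The Ciita stretch held the E box from 116 to 111 bases upstream and the IRF element from 36 to 28 bases upstream, each under a peak in 6 lists and neither overlapping another motif. In the order named these letters occurred in 7.15% and 8.56% of promoters, and both together in 0.505%. A match of letters is a description of sequence and not evidence that a factor was bound.

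For each peak MACS2 gives a fold enrichment, the fragments at the summit against a background that is genome-wide or local, whichever is larger. Because folds rise and fall with the depth of a library, each was turned into its percentile within its own list, 0 for the lowest and 100 for the highest. Genome-wide background coverage, recovered from the lists, was 1.75 to 2.29 fragments per base, and median folds were 5.26 to 6.24. Libraries did not group by genotype throughout. Among all shared regions WT 1 correlated with WT 2 and WT 3 at Spearman's rho of 0.876 and 0.857, and with cKO 2 at 0.883. WT 2 and WT 3 correlated at 0.923. The library cKO 2 also stood apart from its group. Across regions called in all 6 lists its percentiles correlated with those of the WT lists at Spearman's rho of 0.883 to 0.91 and with the other cKO lists at 0.819 and 0.841, whereas cKO 1 and cKO 3 correlated at 0.917. The promoter of Arid3a itself was open in all lists, at percentiles 64.7, 61.1 and 54.4 in WT and 46.5, 56.7 and 43.7 in cKO, which overlap. These values check no deletion, because the position of the floxed stretch is not given in the sources used here. Since crypts are a mixture, fewer open cells and less open chromatin per cell cannot be told apart.

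Each of the 7 genes had a promoter peak in at least 1 of 6 lists, while 8397 of 21938 protein-coding genes had none in any list. For each of the 7, lists of both genotypes held one, a share that was not counted over all genes. Counting a summit from 1000 bp upstream to 100 bp downstream of any annotated start, H2-Aa, H2-Ab1 and H2-DMa had a promoter peak in 6 of 6 lists. That is 3 of 7 genes, near the background of 44.6% of protein-coding genes. The other 4 genes missed 1 or more lists. H2-DMb1 missed WT 1, where its summit (chr17:34153189) lay 117 bp past the GENCODE start (chr17:34153072). The RefSeq start used for its sequence lies further downstream, and that summit falls within the stretch shown, so this miss depends on the annotated start. Ciita missed WT 1, WT 3 and cKO 3, with summits up to 238 bp past the nearest start. With a summit allowed within 500 bp of a start on either side, 6 of 7 genes were called in every list, against 54.7% of protein-coding genes, and Cd74 was the one that was not. In cKO 1, H2-Eb1 passed that wider limit through an internal start, described with the distal regions. Under the 100 bp limit, single lists held a promoter peak for 5 to 7 of the 7 genes, against 52.0% to 55.2% of protein-coding genes.

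**Figure D1:**
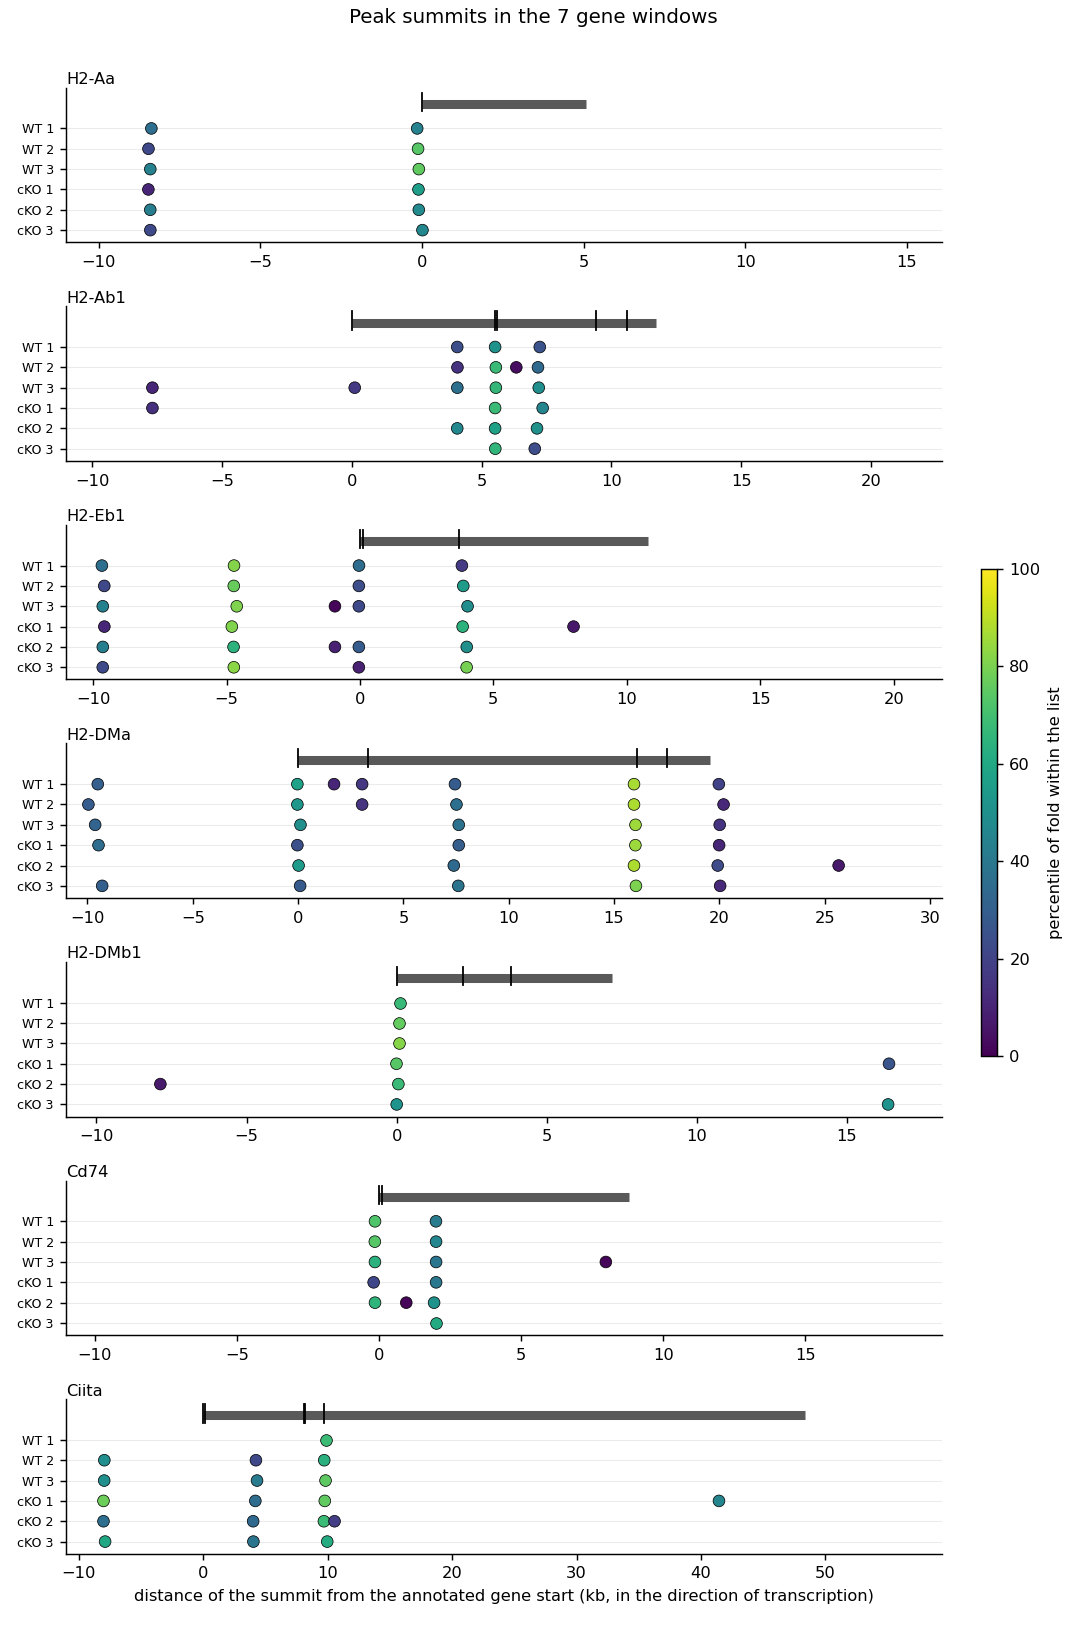
Peak summits in the windows of the 7 genes, with distance from the annotated gene start in kb on the horizontal axis and 1 row per list. Grey bars are gene bodies, black ticks annotated transcript starts, and colour is the percentile of fold within the list. Summits recur between lists at the 14 regions called in all 6, and the Ciita peak sits at the last of its 3 groups of starts. Summits spread most, over 713 bp, in the region 9.6 kb upstream of H2-DMa. There the cKO 2 summit lies outside the window and is not drawn.

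Among the promoter peaks the highest rank belonged to H2-DMa, the alpha chain of the peptide exchanger, at the start of its short protein-coding transcripts 16 kb into the annotated gene (chr17:34135245-34136006, exonic). Percentiles were 87.1, 87.8 and 85.4 in WT and 85.1, 87.5 and 80.3 in cKO. Summits held 97, 168 and 193 fragments in WT and 243, 135 and 159 in cKO. In every list this was the highest of the 8 promoter peaks followed here. Over all lists its range overlapped that of H2-DMb1, since its 80.3 in cKO 3 lay below the 81.7 of H2-DMb1 in WT 3. The genotypes overlapped (86.7 ± 1.19 against 84.3 ± 3.65, SD, n = 3 each). The limma test across all shared regions gave a difference in normal score, cKO minus WT, of -0.10 ± 0.18 (SE, adjusted p = 0.893).

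A separate peak lay at the annotated start of H2-DMa (chr17:34118831-34122878), where noncoding H2-DMa transcripts and exons of Brd2, a bromodomain chromatin reader on the opposite strand, overlap. The region also holds, 3.3 kb into the annotated gene, the start of another protein-coding transcript, H2-DMa-201. It could not be assigned to either gene. WT 1 and WT 2 had further summits in it at chr17:34122579, within the promoter limits of both genes. Another WT 1 summit, at chr17:34121246, lay within the promoter limits of Brd2 alone. The region held more fragments than any other in the windows, 118, 199 and 245 in WT and 263, 155 and 210 in cKO. Its percentiles were 57.5, 52.8 and 49.7 in WT and 24.3, 54.5 and 27.9 in cKO, against a local background of 19.4 to 60.5 fragments. Low ranks were confined to cKO 1 and cKO 3, the lists with the highest local background, 60.5 and 45.8. Means were 53.3 ± 3.93 in WT and 35.6 ± 16.48 in cKO (SD, n = 3), and limma gave -0.47 ± 0.24 (SE, adjusted p = 0.776). On fragments per genome-wide background the same peak stood at 55.9, 109.0 and 122.0 in WT and 115.0, 88.6 and 96.3 in cKO. On the log2 of this measure limma gave 0.13 ± 0.40 (SE, adjusted p = 0.903), below the median of 0.276 over all shared regions. Whether the local background accounts for the low ranks was not tested.

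H2-DMb1, the beta chain of the exchanger, had its peak at the first exon (chr17:34152848-34153560). Percentiles ran 67.2, 76.0 and 81.7 in WT and 73.8, 67.6 and 51.7 in cKO. WT 1 overlapped the cKO values, and cKO 3 was lowest of the 6. Fragments at the summit were 28, 42 and 45 in WT and 32, 34 and 19 in cKO. The mean was 74.9 ± 7.31 in WT and 64.4 ± 11.43 in cKO, a difference of -0.31 ± 0.22 in normal score (SE, adjusted p = 0.781, limma).

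H2-Aa encodes the alpha chain of the class II molecule I-A. Its promoter peak (chr17:34287651-34288264) had summits within 150 bp of the start in every list. Percentiles were 44.5, 73.6 and 75.6 in WT. In cKO they were 55.5, 47.3 and 46.3. WT 2 and WT 3 were above all cKO lists and WT 1 was below them, so the ranges overlapped. Folds were 4.92, 9.3 and 9.42 in WT and 6.73, 5.68 and 5.69 in cKO, from 23, 45 and 53 and from 32, 27 and 22 fragments. Means were 64.6 ± 17.39 and 49.7 ± 5.05 (SD, n = 3), and limma gave -0.40 ± 0.25 (SE, adjusted p = 0.776). The difference was negative in all 14 alternatives, from -0.67 to -0.26, with 2 unadjusted p under 0.05 and a lowest adjusted p of 0.519. The alternatives reuse the same samples, so a constant sign is not separate support. The 2 settings were lists of equal length and leaving out WT 1. In them 2267 of 29584 and 1778 of 37182 shared regions had an unadjusted limma p under 0.05. Without WT 1, the list with the fewest peaks though not the lowest background coverage, the ranges of H2-Aa and H2-DMb1 no longer overlapped. Both were lower in cKO, as was true of 15.2% of shared regions under that setting.

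The partner of H2-Aa did not follow it. H2-Ab1, the I-A beta chain, had its promoter peak at the start of its coding transcripts, 5.5 kb past the annotated gene start (chr17:34262938-34263722). Percentiles were 50.4, 67.9 and 66.2 in WT and 67.9, 57.3 and 65.4 in cKO. The groups overlapped almost fully, with means of 61.5 ± 9.67 and 63.5 ± 5.55. The limma difference was 0.05 ± 0.20 (SE, adjusted p = 0.954). Whether the difference at H2-Aa differed from that at H2-Ab1 was not tested.

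H2-Eb1 encodes the I-E beta chain. Its promoter peak (chr17:34305700-34306364), which overlaps the start of the antisense gene Gm20513, was the lowest of the members in each list that called it. Percentiles were 35.3, 23.5 and 22.1 in WT and 28.7 and 9.2 in cKO 2 and cKO 3, and cKO 1 had no peak there. Summits held 33 to 61 fragments, but the local background was 6.68 to 14. Reads carry no strand in ATAC-seq, so the peak is shared by both genes.

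Cd74, the invariant chain, lies on chromosome 18 (chr18:60803848-60812652). Its promoter peak, at 144 bp upstream of the start (median summit), was found in every WT list and in 2 cKO lists. Percentiles were 72.5, 73.6 and 63.9 in WT. In cKO they were 21.3 in cKO 1 and 65.0 in cKO 2, and no peak was called in cKO 3. Fragments at the summit were 46, 65 and 80 in WT and 26 and 56 in the cKO lists that called it. The weak and the uncalled promoter were in cKO 1 and cKO 3, while cKO 2 lay within the WT range. A list holds only peaks past the caller's threshold, hence an uncalled promoter is not shown to be closed. The region was outside the shared set. With regions admitted when called in at least 2 of 3 lists of each genotype, limma gave a difference of -0.73 ± 0.34 in normal score (SE, adjusted p = 0.804), with cKO 3 dropped from the value. The other 3 member regions admitted there, among them the H2-Eb1 promoter at -0.32 ± 0.29, had adjusted p from 0.824 to 0.908. With consensus peaks required in 3 of 3 lists of one genotype and 0 of 3 of the other, 0 of 29 member regions were called, against 0.575% of all regions.

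Ciita is annotated with 3 groups of starts, at the gene start, 8.1 kb and 9.7 kb into the gene. No list had a peak over the first or the second. Over the third, the group with the E box and IRF letters, a peak was called in 6 of 6 lists (chr16:10489345-10490377). Percentiles were 68.0, 63.3 and 75.0 in WT and 75.6, 68.3 and 61.7 in cKO. Fragments numbered 28, 32 and 44 in WT and 47, 31 and 32 in cKO. Means were 68.8 ± 5.92 and 68.5 ± 6.97, the closest pair among the promoters, and limma gave a difference of 0.00 ± 0.20 (SE, adjusted p = 0.996). The third group is the promoter known to answer interferon gamma, and it was the one start of Ciita with a called peak in either genotype.

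**Figure D2:**
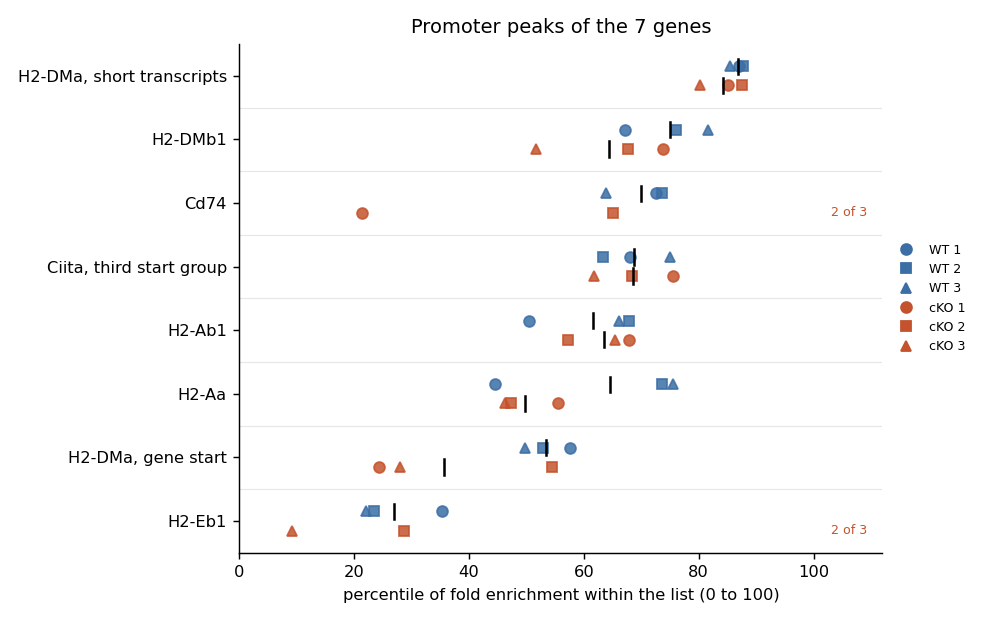
Percentile of fold within the list (horizontal axis) of each promoter peak, 1 point per list, blue for WT and red for cKO, with black bars for means of 3. The H2-DMa peak at its short transcripts sits above 80 in all lists, and Cd74 and H2-Eb1 were called in 2 of 3 cKO lists. All 6 promoter regions with a peak in every list have overlapping genotypes. For Ciita and H2-DMb1, not every summit in the region lay within the 100 bp promoter limit.

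Ordered by their WT means the promoters ran H2-DMa at its short transcripts, H2-DMb1, Cd74, Ciita, H2-Aa, H2-Ab1, H2-DMa at the gene start and H2-Eb1. From H2-DMb1 to H2-DMa at the gene start each promoter overlapped its neighbour in the WT range, so their order is not resolved. Only the highest and the lowest were separated from their neighbour in WT, 85.4 against 81.7 and 35.3 against 49.7. Taken over shared regions in the windows, the median of the mean percentile was 49.3, against 65.0 over all 32748 shared regions.

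Away from the promoters, 13 distal regions were called in 2 or more lists, 8 of them in all 6. The strongest lay 4.7 kb upstream of H2-Eb1, in an intron of Gm20513 (chr17:34300625-34301540). It stood at percentiles 81.6, 76.6 and 80.7 in WT and 81.2, 64.3 and 82.6 in cKO, far above the H2-Eb1 promoter in every list that called both. A region 3.9 kb into H2-Eb1 (chr17:34309419-34310157), 227 bp past the start of a retained-intron transcript, reached 17.3, 54.9 and 49.1 in WT and 64.3, 49.9 and 79.1 in cKO. It had the largest difference of the shared member regions, 0.67 ± 0.31 in normal score (SE, adjusted p = 0.776, limma), and WT 2 overlapped cKO 2. The difference was positive in all 13 alternatives that had the region, from 0.34 to 0.87, with 5 unadjusted p under 0.05 and a lowest adjusted p of 0.318. Here too the alternatives reuse the same samples. In those 5 settings, unadjusted limma p under 0.05 ran from 814 of 32748 shared regions (log2 fold) to 5108 of 33919 (without cKO 2). Within H2-Eb1, the promoter was lower and this intragenic region higher in cKO 3 than in any WT list.

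A region in an intron of H2-Ab1, 4.1 kb into the annotated gene and 1461 bp before its coding transcripts start (chr17:34261466-34261985), was called in 3 of 3 WT lists and only in cKO 2 of the cKO lists. Percentiles were 24, 14.5 and 36.6 in WT and 46.7 in cKO 2. A region past the end of H2-DMb1 (chr17:34169088-34169562, at 16.4 kb) showed the opposite, with percentiles of 26.3 and 51.5 in cKO 1 and cKO 3 and no peak in the other 4 lists. Leaving out cKO 2 made both regions specific to 1 genotype, as were 2.75% of all regions under that setting. A region 7.2 kb into H2-Ab1 (chr17:34264538-34265320) was shared by all lists, at 25.4, 33.6 and 49.4 in WT and 45.5, 50 and 23.6 in cKO.

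An intronic region 2.0 kb into Cd74 (chr18:60804757-60806336) was called in 6 of 6 lists, including the 1 without a promoter peak. Percentiles were 41.1, 45.8 and 39.3 in WT and 39.6, 50.5 and 60.6 in cKO. The cKO 3 list, where the promoter was uncalled, was the highest. The limma difference was 0.21 ± 0.20 (SE, adjusted p = 0.814).

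Ciita had distal regions 8.0 kb upstream (chr16:10471740-10472400) and 4.2 kb into the gene (chr16:10483184-10484478), each called in 5 of 6 lists, and WT 1 missed both. The upstream region stood at 49.3 and 49.9 in WT 2 and WT 3 and at 77.6, 35.9 and 59.7 in cKO. The intronic one stood at 21.6 and 41.4 in WT and 35.2, 33.6 and 38.6 in cKO. Around H2-DMa, 3 distal regions were shared by all lists, with percentiles between 10.8 and 49.5, and the peak of cKO 2 in the one 9.6 kb upstream had its summit outside the window. The region between H2-Aa and H2-Eb1 (chr17:34295888-34296490), which falls in both windows, stood at 35.8, 21.5 and 43.5 in WT and 10.6, 42.5 and 22.2 in cKO. A last one, 7.7 kb upstream of H2-Ab1 in an intron of H2-Ob, was called in WT 3 and cKO 1 only, at 10.6 and 13.9. The remaining 7 regions were each called in 1 list, with percentiles from 1.6 to 45.5, and 2 lists held a weak second H2-Eb1 peak 937 bp upstream.

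**Figure D3:**
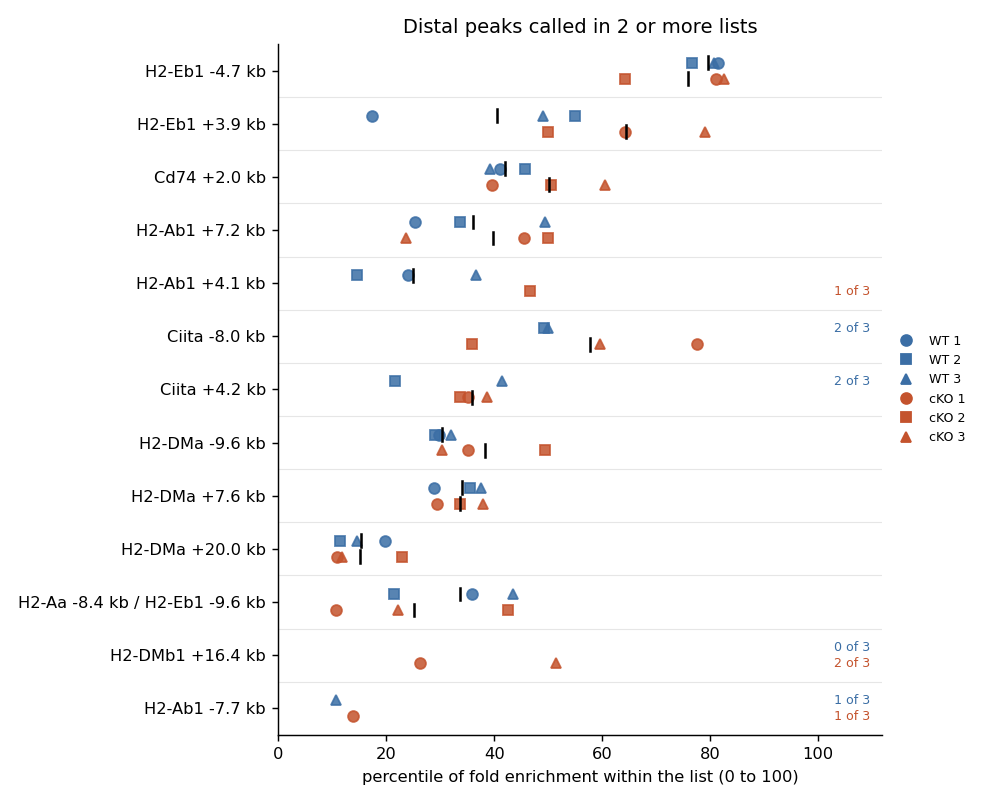
Percentile of fold within the list (horizontal axis) for the 13 distal regions called in 2 or more lists, labelled by gene and distance from the annotated start, with points and bars as in the promoter plot. The region 4.7 kb upstream of H2-Eb1 ranks highest, and the one 3.9 kb into H2-Eb1 has the widest gap between means, 40.4 against 64.4.

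Counting all peaks in the windows, lists held 19, 21 and 23 in WT and 21, 22 and 18 in cKO (21 ± 2.0 and 20.33 ± 2.08, SD, n = 3). Promoter peaks of any gene numbered 8, 9 and 9 in WT and 7, 10 and 6 in cKO. Distal peaks numbered 11, 12 and 14 in WT and 14, 12 and 12 in cKO. All 3 counts overlapped between the genotypes. In every list the median percentile was higher for promoter than for distal peaks, by the widest gap in WT 2, 67.9 against 31.3, and the narrowest in cKO 3, 49.0 against 45.0.

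Of the 14 shared member regions, 0 passed limma at an adjusted p of 0.05, and 0 had an unadjusted p under 0.05. Over all 32748 shared regions 0% passed as well, although 1964 had an unadjusted p under 0.05, and the lowest adjusted p was 0.776. Percentile ranges of WT and cKO overlapped in all 14, where 7.04% of shared regions were lower and 4.66% higher in cKO without overlap. Means were lower in cKO in 9 regions and higher in 5, with a median difference of -0.3 percentile points. Across all shared regions 50.7% were lower, and the median was -0.09. With 3 against 3 samples, and labels that number but do not describe the animals, these p-values measure the spread between these samples only. The absence of a call does not show equal accessibility.

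**Figure D4:**
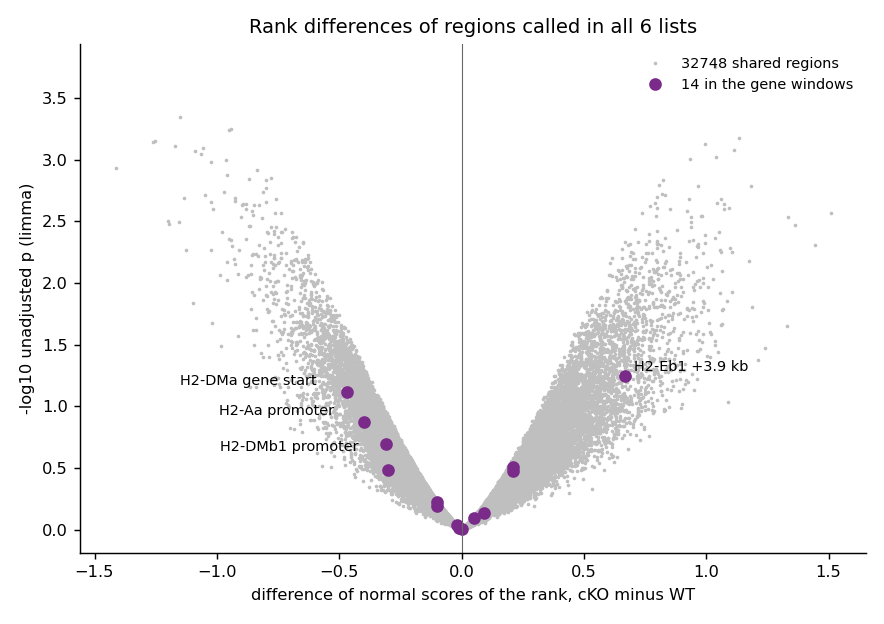
Difference in normal score of rank, cKO minus WT (horizontal axis), against -log10 of the unadjusted limma p (vertical axis), for all 32748 shared regions in grey and the 14 in the gene windows in purple. The member regions lie among the bulk, with the H2-Eb1 region at 3.9 kb farthest to the right at 0.67 and the H2-DMa gene start farthest to the left at -0.47.

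Of 11 class II relatives and transactivators, 6 had a promoter peak in 6 of 6 lists and 3 in none. The 6 included the RFX subunit genes Rfx5, Rfxap and Rfxank with mean percentiles of 93.7, 95.5 and 91.4 in WT and 92.2, 94.9 and 87.7 in cKO. Nfyb and Nfyc, subunits of NF-Y, and Creb1 were the others, while Nfya had no called promoter peak. The class II relatives H2-Oa and H2-Eb2 had none in any list, and H2-Ob had 1 in 2 lists. H2-DMb2, a second DM beta chain, had a peak in cKO 2 alone, at percentile 6.9. H2-DMb1 and H2-DMb2 are close copies, so reads may be split between them or dropped, which was not tested.

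Of 9 genes between interferon gamma and Ciita, 7 had a promoter peak in all lists. Irf1, an activator of Ciita transcription, stood at 84.1, 81.8 and 83.1 in WT and 79.5, 89.9 and 85.7 in cKO. Only Jak2, a kinase of the interferon gamma receptor, had ranges that did not overlap, at 86.3, 82.9 and 83.0 in WT and 68.5, 81.5 and 70.1 in cKO. That gap rested on 81.5 in cKO 2 against 82.9 in WT 2. Of all protein-coding promoters called in 6 lists, 9.66% were lower and 2.89% higher in cKO without overlap. The receptor chain Ifngr2 was called in 3 WT and 2 cKO lists, at 37.9, 48.7 and 38.3 and at 21.6 and 12.4.

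Class I presentation genes were mostly open as well, 9 of 11 in all 6 lists, and the genotypes overlapped in all 9. Nlrc5, the class I counterpart of Ciita, stood at 45.1, 73.4 and 79.4 in WT and 84.2, 77.6 and 67.8 in cKO. Psmb9 and Tap1, which share a bidirectional promoter and hence 1 peak, stood between 91.4 and 96.3. H2-D1 had no called promoter peak, in a family of close copies whose reads can be dropped or split, which was not tested here. Of 6 endosomal processing genes, 3 had a promoter peak in all lists. Ctss, the protease that trims the invariant chain, stood at 33.1, 11.5 and 61.8 in WT and 37.6, 29.3 and 34.0 in cKO. The median of the mean percentile over promoters called in all lists was 62.5 for the class II set, where it rests on 3 of the 7 genes. It is the value of 1 gene, H2-Ab1. The median was 90.8 for the class II relatives and transactivators (6 genes), 84.0 for the interferon genes (7) and 91.5 for endosomal processing (3). It was 79.8 for class I presentation (9) and 85.8 for all protein-coding genes (9777).

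Markers of the labelled tissue and of other class II-expressing cells were read in the same lists. Of 16 crypt epithelial markers, 7 had a promoter peak in 6 lists, near the background of 44.6% of protein-coding genes. Single lists held one for 10 to 12 of the 16, against 52.0% to 55.2% of protein-coding genes. Vil1, the gene whose promoter drives the Cre, stood at 80.9, 84.5 and 77.6 in WT and 72.0, 82.1 and 64.8 in cKO. Cdx2 was lower in cKO without overlap, at 71.6, 74.2 and 73.4 against 57.4, 69.1 and 58.3, as was Cldn7. Promoters of 2 to 3 of 8 B cell markers, 2 to 5 of 12 myeloid and dendritic cell markers and 1 to 3 of 12 T cell markers were called per list. In no list was there a promoter peak for 8397 of 21938 protein-coding genes. The same held for 5 of the B cell, 7 of the myeloid and dendritic and 9 of the T cell markers. Ptprc, Cd3e, Ms4a1, Itgax and Csf1r, which define leukocytes or their classes, were among these. Others were called, among them Cd68 in 6 lists, the dendritic cell markers Zbtb46 and Batf3 in 5, Cd2 in 5, Cx3cr1 in 4 and Cd22 in 3. Pax5, a B cell regulator, had one in all 6, at 33.8, 60.1 and 72.8 in WT and 92.8, 73.6 and 61.8 in cKO. Ebf1 and Lck were also called in all 6. The part of immune cells in the class II peaks was not tested.

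**Figure D5:**
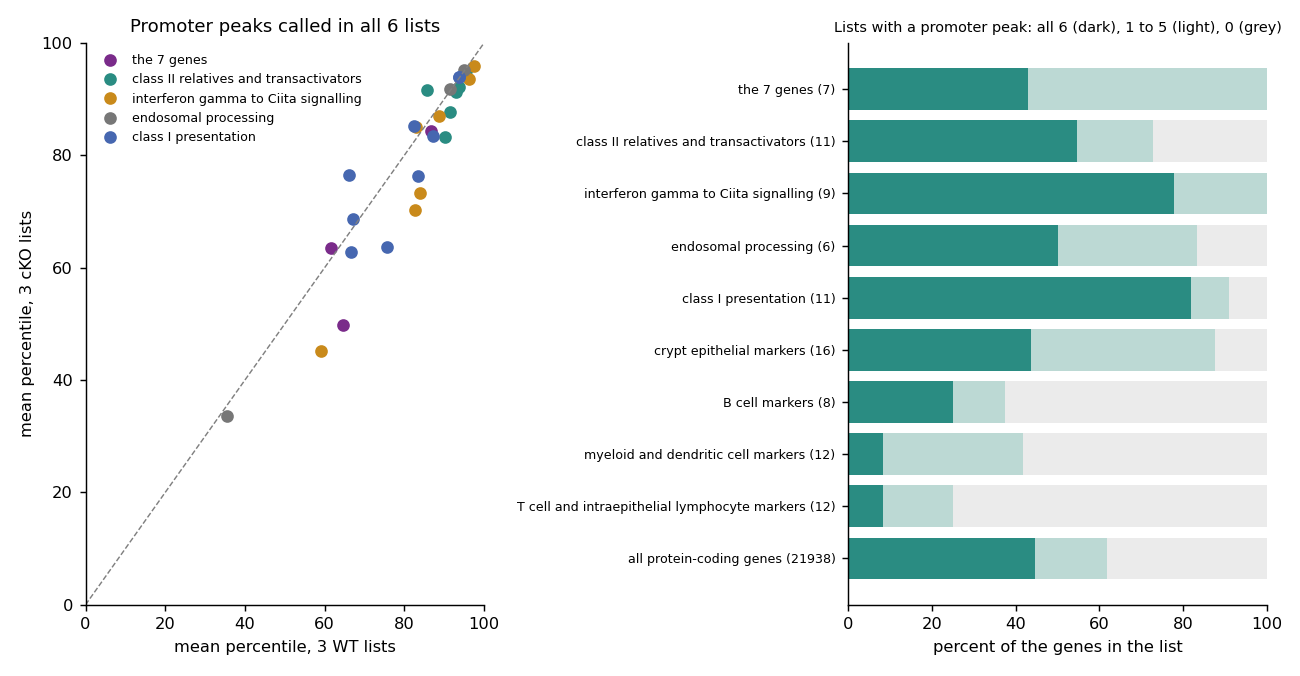
Left, mean percentile of promoter peaks called in all 6 lists, WT on the horizontal and cKO on the vertical axis, 1 point per gene coloured by list, with the line of equality dashed. Right, percent of each list's genes (number in brackets) whose promoter was called in 6, 1 to 5 or 0 lists, where all 7 class II genes were called at least once and most leukocyte markers in none.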

How the data were processed

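ATAC-seq was read from 1 peak list per sample, 3 WT and 3 cKO, grouped by the titles in their labels. The authors ran nf-core/atacseq, with Trim Galore, BWA and GRCm38, removed blacklisted regions and called narrow peaks per sample with MACS2, without an input control. For each peak the deposited lists hold a fold enrichment, −log10 p and −log10 q and a score, as the authors' MACS2 wrote them. No read counts were used, so the differential count test of the study could not be run.

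Lists were merged where peaks overlapped by at least 1 base. Percentiles of fold, as normal scores, were compared over regions called in all 6 lists with limma 3.58.1 in R 4.3.3, two-sided, with Benjamini-Hochberg adjustment over all such regions and a threshold of 0.05. Fold and −log10 p gave back the whole number of fragments at each summit, for 100% of the peaks solved. Counts, ranges and calls were described without p. The exact permutation test of 1 region, 3 against 3, cannot go below 0.1. Peaks on 21 chromosomes were used, and 61 to 92 per list on other sequences were left out. Genes came from GENCODE M21 (GRCm38). All peaks in the windows were accounted for, and other genes were named from fixed lists only. Some genes of these lists are counted but not reported by name here. Scripts ran under Python 3.11.15, pandas 2.3.3, NumPy 2.4.6 and SciPy 1.17.1 and were tested on simulated data. The members and lists were chosen with earlier results of these data known.

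Alternatives were ranks of −log10 q, log2 fold, lists of equal length, −log10 q of at least 5, windows of 501 bp around summits, regions called in at least 2 of 3 lists of each genotype, other gene windows and promoter limits, a replicate block, and leaving out each sample.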

Additional observations from a re-analysis of the deposited data

How the results depend on the processing

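The limma count of shared regions stayed at 0 in all 14 alternatives, with lowest adjusted p from 0.306 without cKO replicate 2 to 0.9999 on log2 fold. With the replicate block it was 0, with a lowest adjusted p of 0.884. Deviations of same-numbered WT and cKO samples correlated at -0.27, -0.02 and 0.13, and not every sample correlated best with its own number. With 3 samples per genotype, these values cannot settle whether same-numbered samples were processed together.

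On log2 fragments over background, an alternative chosen after seeing the data, the median of all shared regions moved by 0.276 toward cKO, and 0 were called. Counts of regions with ranges apart, 3829 of all shared regions, ran from 5487 to 12963 when 1 sample was left out, highest without cKO replicate 2, as ranges of fewer samples separate more often. Without it 3 member regions separated, where 20.9% of shared regions were lower and 17.3% higher in cKO. The H2-DMa promoter at its short transcripts and the gene-start region shared with Brd2 were lower, and the H2-Eb1 region at 3.9 kb higher. Without WT 1, the H2-Aa and H2-DMb1 promoters separated, both lower. Leaving out WT 2, WT 3, cKO 1 or cKO 3 separated 1 region each, higher in cKO, where 6.4% to 13.2% of shared regions were higher. These were the H2-Eb1 region at 3.9 kb, the region 9.6 kb upstream of H2-DMa (WT 3 and cKO 3) and the intronic Cd74 region. Member regions apart numbered 2 on lists of equal length, the H2-DMb1 and H2-Aa promoters, both lower (7.03% of all shared regions lower, 4.67% higher). They numbered 2 at −log10 q of at least 5, the regions 9.6 kb upstream and 20 kb downstream of the H2-DMa start, both higher (6.24% lower, 4.39% higher), and 1 by rank of −log10 q, the former, higher (2.24% lower, 6.72% higher). Regions called in 1 genotype only, 410 of all, ran from 796 to 1959 when 1 sample was left out, and were 311 at −log10 q of at least 5 and 411 on lists of equal length. Member promoters called in all lists were 6 with summits within 500 bp, and 3 or 4 otherwise. The difference in peaks per window set ran from -1.67 to 0.5 between genotypes, within the spread. Depth limits what an uncalled peak means, and read totals were not used here.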
